A study of Mus musculus with 28 samples.

Results

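Transforming growth factor beta (TGF-beta) signalling was followed through 10 genes that were chosen by symbol: the ligand Tgfb1, the integrin subunit Itgb8, the receptors Tgfbr1 and Tgfbr2, the signal transducers Smad2, Smad3 and Smad4, the inhibitor Smad7, and the corepressors Ski and Skil. These are 10 of the 25124 genes in the deposited table. All 10 had a row there, and all 10 passed the filter for testing, a level of at least 1 TPM (transcripts scaled to length and to each library's total) in at least 6 of the 28 libraries. Itgb8 was the lowest of them: it reached 1 TPM in 5 of 6, 6 of 6, 5 of 10 and 4 of 6 libraries of the groups in the order given next.

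The libraries came from CD4+ T cells sorted as live CD45+ CD90.2+ TCRb+ CD4+ cells out of mouse small-intestinal lamina propria, the connective tissue under the gut epithelium. Every group carried the T-bet-ZsGreen reporter, a fluorescent mark of cells that express the transcription factor T-bet, and the sort as described did not select on it. Housing was specific-pathogen-free (SPF), in which mice keep their intestinal microbes, or germ-free (GF), in which they have none. The treatment was aCD3, an antibody that binds the CD3 chains through which the T cell receptor signals, or a control antibody of the same isotype. SPF isotype and SPF aCD3 held 6 libraries each, 3 from females and 3 from males. GF isotype held 10, with 5 from each sex, and GF aCD3 held 6, with 1 from a female and 5 from males. Ages, the dose and the time after injection were not found in the sources used here. Libraries are named by group, sex letter and number. No label says that each library is a separate animal, so p-values measure the spread between these libraries. Markers of CD4+ T cells (Cd3d, Cd3e, Cd3g, Cd4, Thy1, Cd5, Lck and Ptprc) summed to between 1771 and 2377 TPM per library, and all 8 were detected in each group.

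TGF-beta is secreted in a latent complex and acts only once it has been released, which integrins such as the one built with the Itgb8 chain can do. The active ligand binds the type II receptor Tgfbr2, which phosphorylates the type I receptor Tgfbr1. The activated type I receptor phosphorylates Smad2 and Smad3, which join Smad4 and enter the nucleus to regulate genes. Smad7 is induced by the pathway and blocks the receptor, while Ski and Skil hold SMAD complexes in a repressed state. In CD4+ T cells of the gut the pathway is known for restraining effector cells and for supporting regulatory T cells, tissue residency and IL-17-producing cells.

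Promoter sequence is shown for Tgfb1, which moved up relative to other genes after aCD3 in SPF mice, and for Tgfbr2 and Smad3, which fell together. The 250 bases before the start were taken from RefSeq (mouse GRCm38.p6), written 5′ to 3′ on the gene's strand. Capitals mark CAGAC, a core recognised by SMAD proteins, and GGGCGG, a GC box, on either strand (as GTCTG or CCGCCC where reversed).
Tgfb1, chr7:25686752-25687001, plus strand: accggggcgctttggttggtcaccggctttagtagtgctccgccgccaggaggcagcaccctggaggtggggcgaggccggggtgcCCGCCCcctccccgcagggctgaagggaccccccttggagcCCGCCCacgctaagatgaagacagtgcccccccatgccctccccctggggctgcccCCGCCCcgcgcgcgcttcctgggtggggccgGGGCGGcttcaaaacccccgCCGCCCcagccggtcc
Tgfbr2, chr9:116175364-116175613, minus strand: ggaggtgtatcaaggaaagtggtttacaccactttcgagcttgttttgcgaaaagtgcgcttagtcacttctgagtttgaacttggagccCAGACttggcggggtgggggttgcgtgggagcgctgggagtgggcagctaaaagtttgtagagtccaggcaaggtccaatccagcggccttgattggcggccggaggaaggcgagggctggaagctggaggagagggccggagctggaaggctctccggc
Smad3, chr9:63757995-63758244, minus strand: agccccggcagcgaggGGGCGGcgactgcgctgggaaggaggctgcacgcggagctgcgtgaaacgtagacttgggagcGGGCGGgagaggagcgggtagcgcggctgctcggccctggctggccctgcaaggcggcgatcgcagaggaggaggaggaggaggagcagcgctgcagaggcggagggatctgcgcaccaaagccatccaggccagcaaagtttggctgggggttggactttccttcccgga

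The Tgfb1 window held 5 GC boxes and no CAGAC, the Smad3 window held 2 GC boxes and no CAGAC, and the Tgfbr2 window held 1 CAGAC at -160 and no GC box. Of 32851 mouse promoter windows of the same length, 32.7% held GGGCGG and 42.2% held CAGAC. GC content was 75.2% for Tgfb1, 69.2% for Smad3 and 58.4% for Tgfbr2, beside a median of 52.4% over all windows. None of the 7 windows matched to 6 of the 10 genes (Tgfb1, Tgfbr1 with 2 starts, Tgfbr2, Smad3, Ski and Itgb8) held TGANTCA (AP-1), TGACGTCA (the cAMP response element) or TATAAA on either strand. Those letters were found in 6.75%, 1.55% and 12.4% of all windows. These matches describe letters only, and they do not tell whether a factor binds.

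The table places the genes on the mouse build mm10. Tgfb1 (NM_011577) lies on chromosome 7 from 25687002 to 25705077, and Itgb8 (NM_177290) on chromosome 12 from 119162803 to 119238276. Tgfbr2 (NM_029575) lies on chromosome 9 from 116087695 to 116175363, and Smad3 (NM_016769) on the same chromosome from 63646767 to 63757994. Chromosome 18 holds Smad2 (NM_001311070, 76262445 to 76311747), Smad4 (NM_001364968, 73634791 to 73703791) and Smad7 (NM_001042660, 75367365 to 75395934). Ski (NM_011385) lies on chromosome 4 from 155154075 to 155222535, and Skil (NM_001271772) on chromosome 3 from 31095058 to 31122923. The row for Tgfbr1 (NM_001312869, chromosome 4, 47386216 to 47414924) begins at the later of 2 RefSeq starts, and sequence after the earlier start, whose promoter window ends at 47353221, is not in it. TPM was divided by the whole span of each row, introns included, so levels of different genes are per genomic span and are not ranked against each other here. The only gene of the GENCODE M21 annotation that overlaps any of the 10 rows is a pseudogene within Smad4, over 274 bases on the opposite strand.

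Depth ranged from 6765529 to 17860630 reads in genes per library. A TPM value is relative to the rest of its library, and a few genes filled much of some libraries: the 87 histone genes took 4.31% to 7.30% of summed TPM in SPF isotype, 24.1% to 27.1% in SPF aCD3, 4.05% to 9.54% in GF isotype and 5.66% to 26.3% in GF aCD3. The median tested gene stood at -0.35 on the log2 scale in SPF aCD3 over SPF isotype. Fold changes are as deposited unless said to follow median of ratios scaling, which sets the typical gene to no change (median -0.01). All fits use log2(TPM + 1), a scale on which the change of a low gene comes out too small, and calls are limma tests with Benjamini-Hochberg adjusted p under 0.05 over all 12182 tested genes. In these bulk samples, fewer cells of a type and less RNA per cell cannot be told apart.

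In SPF mice, aCD3 was followed by lower levels along the receptor-to-SMAD chain and by no lower level of the ligand. Of the 10 genes, 7 fell (Tgfbr1, Tgfbr2, Smad2, Smad3, Smad4, Smad7 and Ski) and 0 rose with TPM as deposited. Over all tested genes, 50.7% were called lower and 14.2% higher, so a count of lower calls alone says little about these genes. After median of ratios scaling, where 29.8% of all genes were called lower and 30.2% higher, 6 of the 10 were still called lower and Tgfb1 was called higher. The median log2 fold change of the 10 genes was -0.83, beside -0.35 for all genes, and -0.46 after scaling, beside -0.01. By the ranges of TPM alone, 7 of the 10 lay lower without overlap and 2 (Tgfb1 and Itgb8) higher, beside 33.4% and 8.57% of all tested genes.

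**Figure D1:**
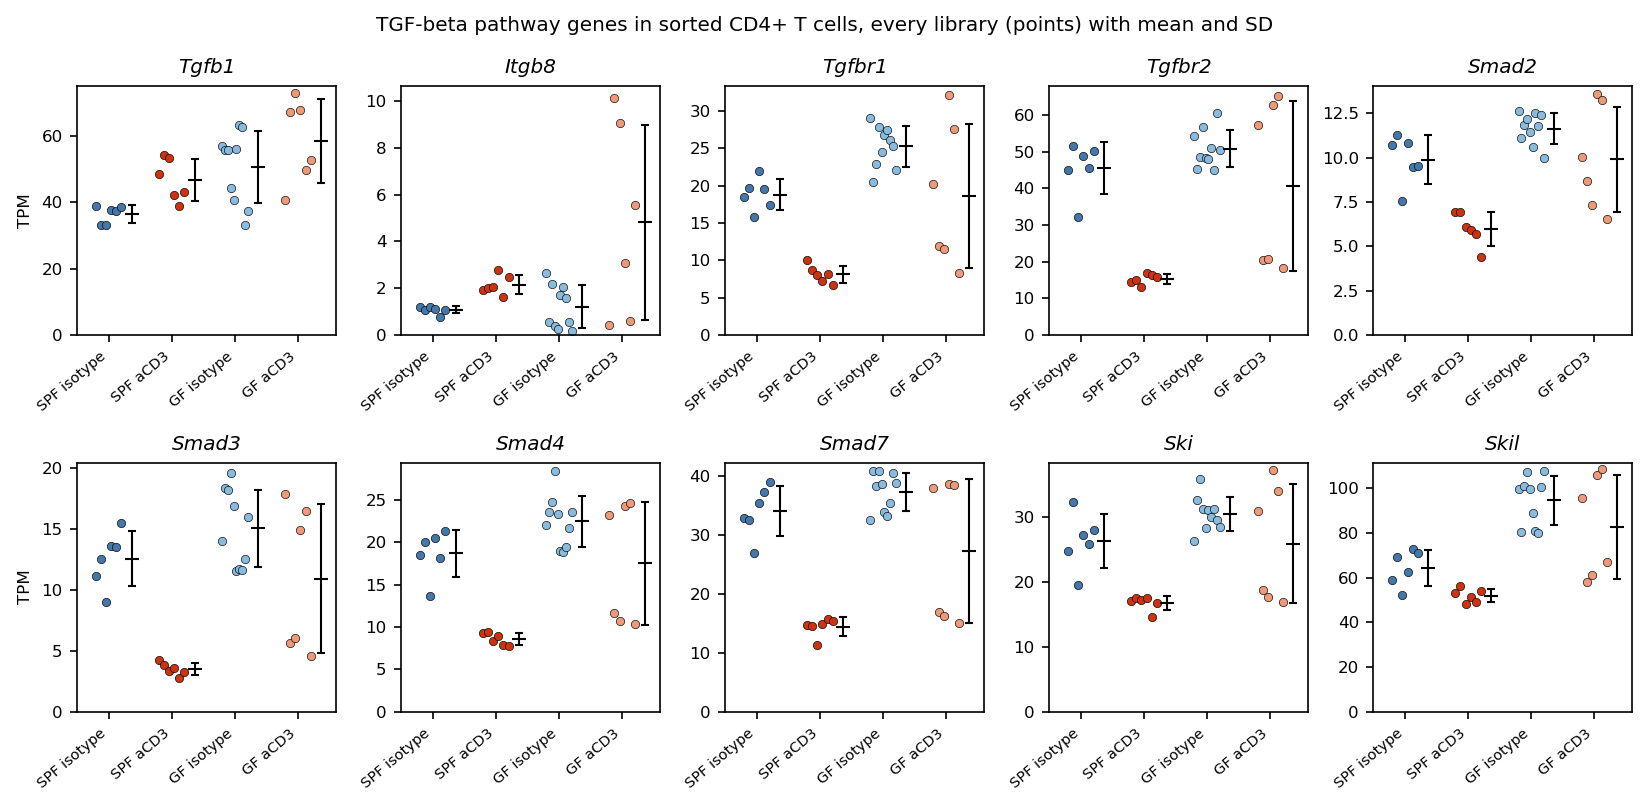
TPM of the 10 TGF-beta pathway genes (vertical axes, linear from 0, a different range in each panel) in every library of the 4 groups (horizontal axis). Points are libraries and the bar beside them is the mean with its SD (n = 6, 6, 10 and 6). SPF aCD3 libraries sit below all SPF isotype libraries for the receptors and SMADs, and GF aCD3 libraries are spread over both levels.

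Tgfb1 encodes the ligand itself. Its TPM ran from 33.2 to 38.8 in SPF isotype (median 37.5) and from 38.9 to 54.1 in SPF aCD3 (median 45.7). All 6 aCD3 libraries thus lay above all 6 isotype libraries, although the nearest pair, at 38.8 and 38.9, almost met. The log2 fold change was 0.34 (SE 0.15, limma adjusted p = 0.0532), which missed the threshold, and 0.75 (SE 0.18, adjusted p = 0.00082) after median of ratios scaling. Without SPF aCD3 M2, the lowest of the treated libraries, the unscaled value was 0.39 (adjusted p = 0.036).

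Itgb8 pairs with the alpha V chain to form an integrin that releases TGF-beta from its latent complex. It ran from 0.784 to 1.20 TPM in SPF isotype (median 1.10, 101 to 174 reads) and from 1.64 to 2.79 TPM in SPF aCD3 (median 2.04, 209 to 386 reads), again with no overlap. The log2 fold change was 0.60 (SE 0.39, limma adjusted p = 0.184), and 0.88 (SE 0.41, adjusted p = 0.0687) after scaling. With only the SPF libraries in the fit the same difference had a limma adjusted p of 0.000319, so the call depended on which libraries set the spread.

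Tgfbr2, the type II receptor that binds the ligand, showed the widest gap of the receptor pair. Its TPM ran from 32.3 to 51.5 in SPF isotype (median 47.2) and from 13.2 to 17.0 in SPF aCD3 (median 15.5). The highest treated library was therefore well under the lowest control library. The log2 fold change was -1.50 (SE 0.24, limma adjusted p = 1.70e-05), and -1.11 (SE 0.18, adjusted p = 1.63e-05) after scaling. Tgfbr1, the type I receptor that carries the kinase signal inward, ran from 15.8 to 21.9 TPM in SPF isotype (median 18.99) and from 6.65 to 9.99 TPM in SPF aCD3 (median 8.12). It fell by 1.12 on the log2 scale (SE 0.21, limma adjusted p = 5.96e-05), and by 0.75 (SE 0.16) after scaling.

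Smad3, one of the 2 SMADs that the receptor phosphorylates, had the largest fold change of the 10 genes. It ran from 8.95 to 15.5 TPM in SPF isotype (median 13.0) and from 2.76 to 4.27 TPM in SPF aCD3 (median 3.46). Its fold change on the log2 scale was -1.58 (SE 0.23, limma adjusted p = 7.34e-06) and -1.24 (SE 0.17) after scaling, and the groups lay far apart. Smad2, the other receptor-regulated SMAD, moved less: from 7.54 to 11.3 TPM in SPF isotype (median 10.1) and from 4.38 to 6.96 TPM in SPF aCD3 (median 5.999). Its log2 fold change was -0.64 (SE 0.13, limma adjusted p = 0.000201) and -0.28 (SE 0.09, adjusted p = 0.00884) after scaling. The difference between Smad3 and Smad2 was not tested. Smad4, the shared partner, ran from 13.7 to 21.3 TPM (median 19.3) and from 7.76 to 9.44 TPM (median 8.63) in the same groups. Its estimate was -1.03 (SE 0.17, limma adjusted p = 2.55e-05) and -0.65 (SE 0.11) after scaling.

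Smad7, the inhibitor that the pathway itself induces, fell with the chain it restrains. Its TPM ran from 26.95 to 39.0 in SPF isotype (median 34.2) and from 11.3 to 15.7 in SPF aCD3 (median 14.8). The log2 fold change was -1.18 (SE 0.19, limma adjusted p = 1.58e-05) and -0.79 (SE 0.13) after scaling. Within a library the ratio of Smad7 to Smad3 does not depend on scaling: it ran from 2.52 to 3.01 in SPF isotype and from 3.37 to 5.69 in SPF aCD3, so Smad7 fell less than Smad3 did in these libraries. In GF the ratio overlapped, at 2.09 to 3.25 in isotype and 2.13 to 3.29 in aCD3 libraries.

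After scaling, the corepressors had the smallest estimates of the 10 genes. Ski ran from 19.5 to 32.3 TPM in SPF isotype (median 26.5) and from 14.6 to 17.5 TPM in SPF aCD3 (median 17.1), with an estimate of -0.61 (SE 0.15, limma adjusted p = 0.00128). After scaling it was -0.21 (SE 0.09, adjusted p = 0.0507), so no fall beyond the typical gene was called. Skil ran from 52.2 to 72.9 TPM (median 65.8) and from 48.4 to 56.1 TPM (median 52.2) in the same groups, with 3 of 6 treated libraries below every control library. Its log2 fold change was -0.30 (SE 0.13, limma adjusted p = 0.0558) as deposited and 0.11 (SE 0.09, adjusted p = 0.275) after scaling, so its sign depends on the scaling.

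The ratio of ligand to receptor within a library gives the same contrast free of scaling, as a description. Tgfb1 over Tgfbr2 ran from 0.644 to 1.03 in SPF isotype (median 0.795) and from 2.39 to 4.04 in SPF aCD3 (median 3.02). Tgfb1 over Tgfbr1 ran from 1.68 to 2.22 and from 4.76 to 6.60 in the same groups. In both ratios every treated SPF library lay above every SPF control library. In GF both ratios overlapped between treated and control libraries. There Tgfb1 over Tgfbr2 ran from 0.546 to 1.40 in isotype and from 0.706 to 3.53 in aCD3.

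**Figure D2:**
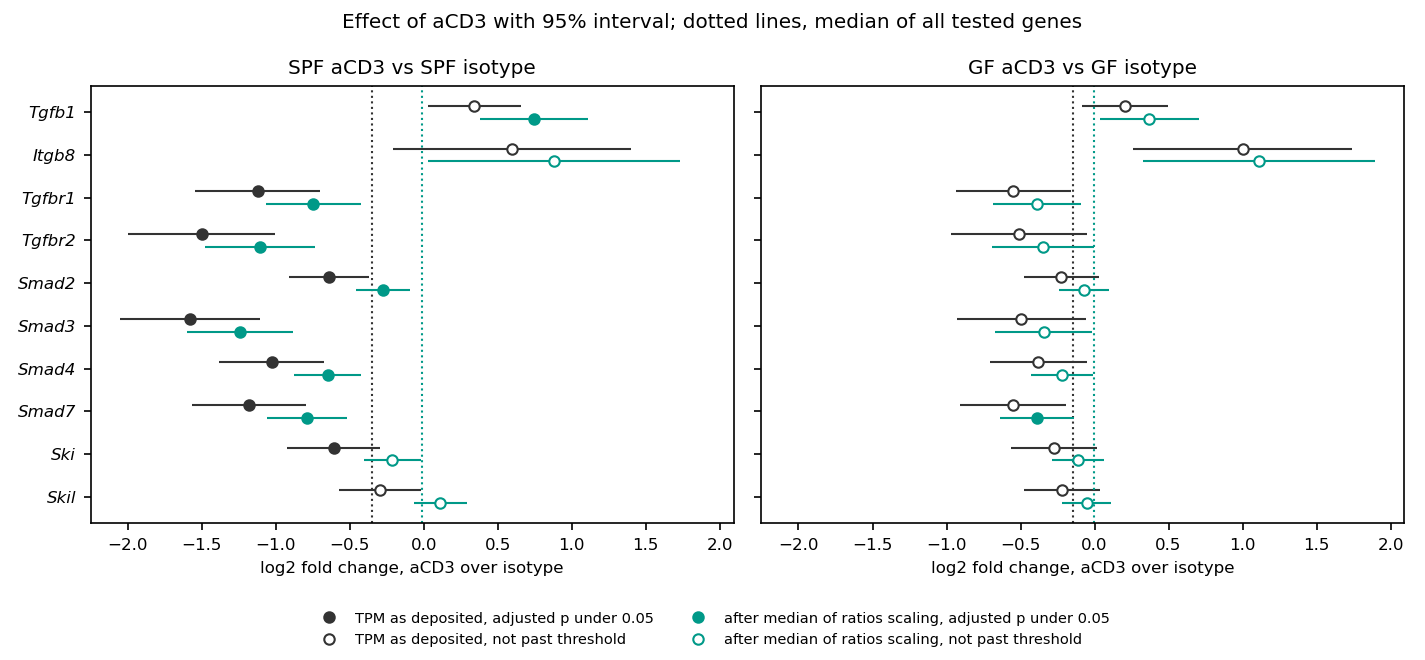
Log2 fold change of aCD3 over isotype (horizontal axis) with its 95% interval for each of the 10 genes (vertical axis), in SPF mice on the left and GF mice on the right. Black marks are TPM as deposited, green marks follow median of ratios scaling, filled marks have an adjusted p under 0.05, and dotted lines are the median of all tested genes. In SPF mice the receptor and SMAD genes lie to the left of both medians and Tgfb1 and Itgb8 to the right.

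Markers of other cells and states moved with aCD3 in SPF mice, and their part in these differences was not tested. The sum of 8 regulatory T cell markers was between 186 and 241 TPM in SPF isotype and between 582 and 735 TPM in SPF aCD3, and that of 6 proliferation markers between 310.04 and 455 TPM and between 847 and 1132 TPM. Most of the first difference was Tnfrsf4, at 55.8 to 74.9 and 369 to 489 TPM, and Tnfrsf18, at 65.4 to 107.3 and 148 to 179 TPM. Foxp3, the defining factor of regulatory T cells, was at 21.3 to 26.1 and 27.3 to 44.5 TPM, and Ikzf2 at 10.008 to 15.4 and 7.85 to 17.8 TPM. CD8 T cell markers summed to 5.68 to 13.5 TPM and 9.75 to 23.8 TPM, with overlap. Erythroid markers summed to 2.29 to 7.07 TPM and 0.716 to 1.28 TPM, with Hba-a1, Hbb-bs and Hbb-bt at 0 in SPF aCD3. B and plasma cell markers summed to 96.4 to 273 TPM in SPF isotype and 2.91 to 9.11 TPM in SPF aCD3. Endothelial markers summed to 7.48 to 12.2 TPM and 2.53 to 3.96 TPM, with Kdr at 0 in SPF aCD3, and epithelial markers to 6.17 to 11.3 TPM and 2.69 to 6.16 TPM. Mast cell markers summed to 1.18 to 2.08 TPM and 3.94 to 5.32 TPM, of which Kit made up 3.94 to 5.21 TPM in SPF aCD3, and Mcpt1 and Mcpt2 were at 0. Stromal markers summed to 4.69 to 42.7 TPM and 0.764 to 2.83 TPM, with Col1a2 at 0 in every SPF aCD3 library. Myeloid and dendritic markers summed to 3.09 to 12.5 TPM and 55.1 to 106.6 TPM. That last difference was Cd68, at 54.4 to 105.8 TPM in SPF aCD3, the only 1 of the 9 listed markers to reach 1 TPM there.

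In GF mice the same treatment gave 0 calls among the 10 genes by limma with TPM as deposited, beside 2.46% of all genes called higher and 4.61% lower. At an unadjusted p under 0.05, 6 of the 10 passed, 5 lower and Itgb8 higher, as did 35.7% of all genes. Median of ratios scaling (5.62% of all genes higher, 4.02% lower) called 1, as did limma voom on recovered reads (7.54% of all genes): Smad7, with a log2 fold change of -0.39 (SE 0.12, adjusted p = 0.0461) after scaling and -0.55 (SE 0.17, limma adjusted p = 0.0512) before it. The estimates for Tgfbr1 (-0.55, adjusted p = 0.0607), Tgfbr2 (-0.51, adjusted p = 0.106), Smad3 (-0.49, adjusted p = 0.103), Smad4 (-0.38, adjusted p = 0.0968) and Smad2 (-0.22, adjusted p = 0.183) had the sign of the SPF estimates. Itgb8 stood at 1.00 (SE 0.36, limma adjusted p = 0.0663), Tgfb1 at 0.20 (adjusted p = 0.290), Ski at -0.27 (adjusted p = 0.160) and Skil at -0.22 (adjusted p = 0.195). After scaling the estimates were -0.39 for Tgfbr1, -0.35 for Tgfbr2, -0.34 for Smad3, -0.22 for Smad4, -0.07 for Smad2, 1.11 for Itgb8, 0.37 for Tgfb1, -0.11 for Ski and -0.05 for Skil, with adjusted p from 0.0568 (Itgb8) to 0.665 (Skil).

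The 6 GF aCD3 libraries did not behave alike, and 3 of them carried the lower levels. Tgfbr2 stood at 20.4 TPM in M1, 20.7 in M2 and 18.2 in M5, against 57.4 in F1, 62.6 in M3 and 65.3 in M4, while the 10 GF isotype libraries ran from 44.9 to 60.6 TPM. M1, M2 and M5 were below the whole control range and close to the SPF aCD3 range, and F1, M3 and M4 were inside the control range or above it. Smad3 stood at 5.60, 6.01 and 4.59 TPM in M1, M2 and M5 and at 17.8, 14.9 and 16.4 TPM in F1, M3 and M4, with GF isotype at 11.5 to 19.6 TPM. Smad7 stood at 17.0, 16.2 and 15.1 TPM in the first set and at 38.0, 38.6 and 38.6 TPM in the second, with GF isotype at 32.5 to 40.9 TPM. The same 3 libraries lay below every GF isotype library for Tgfbr1, Smad2, Smad4, Ski and Skil as well, joined by F1 for Tgfbr1 alone. These levels are TPM as deposited, and how many of all tested genes divided the same way was not counted. The split is therefore not read as particular to these genes.

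Tgfbr1 stood at 11.9, 11.6 and 8.35 TPM in M1, M2 and M5 and at 20.2, 32.1 and 27.6 TPM in F1, M3 and M4, with GF isotype at 20.5 to 29.1 TPM. Smad4 stood at 11.6, 10.8 and 10.4 TPM against 23.3, 24.3 and 24.7 TPM, with GF isotype at 18.8 to 28.4 TPM. No GF aCD3 library had a Smad4 level between these sets. Smad2 stood at 8.66, 7.35 and 6.57 TPM against 10.007, 13.6 and 13.3 TPM, with GF isotype at 9.97 to 12.6 TPM. The corepressors also divided in TPM as deposited, with Ski at 18.8, 17.7 and 16.9 TPM against 30.996, 37.3 and 34.0 TPM, and GF isotype at 26.4 to 35.9 TPM. Skil stood at 57.9, 61.0 and 66.8 TPM against 95.4, 106.0 and 108.5 TPM, with GF isotype at 80.1 to 107.8 TPM. In SPF mice neither corepressor was called lower after scaling, and single GF libraries were not compared after scaling.

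Itgb8 was high in those libraries and also in M3. It stood at 10.1 TPM in GF aCD3 M1, 9.05 in M2, 5.56 in M5 and 3.09 in M3, all above the GF isotype range of 0.192 to 2.66 TPM, and at 0.424 in F1 and 0.605 in M4. These values rested on 50 to 1435 reads. No library of another group reached 3 TPM of Itgb8. Tgfb1 stood at 67.1, 72.9 and 52.8 TPM in M1, M2 and M5 and at 40.5, 67.6 and 49.6 TPM in F1, M3 and M4, so it did not divide the libraries in that way. Isotype levels of both genes differed between the 2 runs of library numbers described below. M1, M2 and M3 share a run with isotype Itgb8 at 0.558 to 2.66 TPM and Tgfb1 at 55.6 to 63.1 TPM. F1, M4 and M5 share the other, at 0.192 to 0.554 TPM and 33.1 to 44.4 TPM. For both genes, only F1 was not above the isotype range of its own run.

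**Figure D3:**
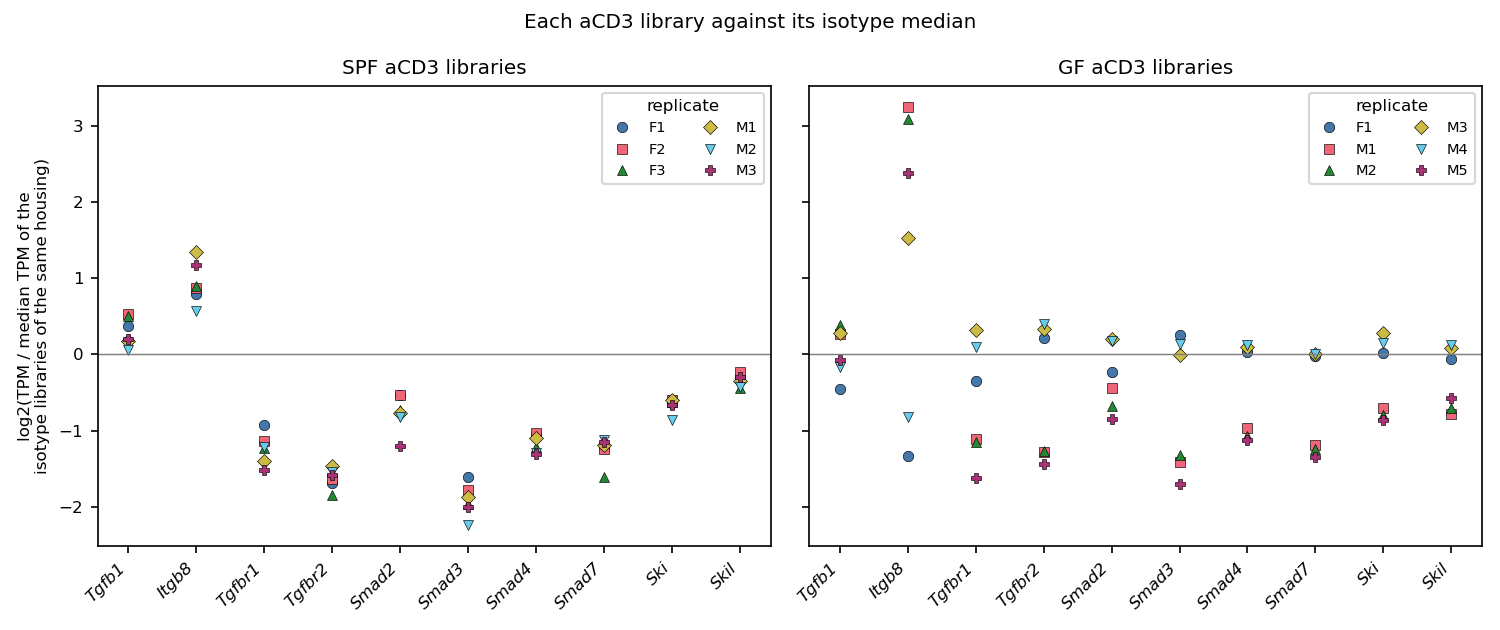
Each aCD3 library as log2 of its TPM over the median TPM of the isotype libraries of the same housing (vertical axis), for the 10 genes (horizontal axis), with SPF on the left and GF on the right. Each symbol is 1 library, and the grey line marks the isotype median. The 6 SPF libraries lie above the line for Tgfb1 and Itgb8 and below it for the other genes. In GF the libraries M1, M2 and M5 stand apart from F1, M3 and M4 for Tgfbr2, Smad3, Smad4, Smad7, Ski and Skil, while for Itgb8 M3 lies with M1, M2 and M5 above the line.

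Other measures moved with those libraries, and their part was not tested. Histone genes took 23.8%, 23.4% and 26.3% of summed TPM in M1, M2 and M5, and 5.66%, 7.79% and 6.71% in F1, M3 and M4. The regulatory T cell markers summed to 631, 811 and 647 TPM in the first set and to 216, 317 and 208 TPM in the second, and the proliferation markers to 1156, 1334 and 1073 TPM against 369.98, 551 and 399.7 TPM. In the regulatory T cell sum, Tnfrsf4 stood at 358, 468 and 368 TPM against 64.4, 124.7 and 66.02 TPM, and Tnfrsf18 at 188, 221 and 193 TPM against 116, 119 and 98.3 TPM. Foxp3 stood at 39.5, 65.7 and 39.2 TPM against 12.7, 31.5 and 16.8 TPM, while Ikzf2 overlapped, at 14.1 to 21.7 TPM against 13.6 to 25.5 TPM. B and plasma cell markers summed to 6.87, 8.57 and 7.82 TPM against 19.7, 98.7 and 31.1 TPM. Myeloid and dendritic markers summed to 44.5, 47.1 and 58.4 TPM against 16.7, 8.88 and 14.4 TPM. Endothelial markers summed to 3.15 to 4.29 TPM against 8.31 to 11.4 TPM, and epithelial markers to 4.69 to 6.31 TPM against 9.77 to 28.05 TPM. CD8 T cell markers (Cd8a and Cd8b1) summed to 9.59 to 13.01 TPM against 3.47 to 7.56 TPM, mast cell markers to 2.84 to 3.45 TPM against 0.872 to 1.15 TPM, and stromal markers to 0.549 to 0.94 TPM against 1.25 to 2.999 TPM. Each of these sums thus kept M1, M2 and M5 apart from F1, M3 and M4, while erythroid markers overlapped, at 1.06 to 1.90 TPM against 1.80 to 2.05 TPM. CD4+ T cell markers also kept them apart, at 1812 to 1966 TPM against 2131 to 2261 TPM. Some of the sums were largely a single gene. Over GF aCD3, the myeloid marker Cd68 ran from 8.33 to 58.0 TPM and the endothelial marker Pecam1 from 2.80 to 8.79 TPM. The mast cell marker Kit ran from 0.486 to 3.41 TPM, with Mcpt1 and Mcpt2 at 0. Reads in genes were 7804797, 12272982 and 8155668 in the first set and 11166222, 17793863 and 9778475 in the second.

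Calls in the GF comparison turned on single libraries. Leaving out F1, M3 or M4 gave 6, 8 and 8 called genes among the 10, and leaving out any other GF library gave 0. The shares of all genes called without F1, M3 and M4 were 29.9%, 34.7% and 31.8%. Without M3, for example, Tgfbr2 stood at -0.67 (limma adjusted p = 0.0219), Smad7 at -0.67 (adjusted p = 0.00826) and Itgb8 at 1.03 (adjusted p = 0.0422). Over all genes the count of calls behaved alike: 862 in the full fit, 0 when any GF isotype library or M1, M2 or M5 was left out, and 3627, 4215 and 3861 without F1, M3 and M4.

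The library numbers in the column names fall into 2 separate runs within GF, and values differed between them. Run 1 held 6 isotype libraries and 3 aCD3 libraries (M1, M2 and M3), and run 2 held 4 isotype libraries and 3 aCD3 libraries (F1, M4 and M5). Tgfb1 ran from 55.6 to 63.1 TPM in the isotype libraries of run 1 and from 33.1 to 44.4 TPM in those of run 2, a log2 difference of -0.58 (limma adjusted p = 0.00494). Itgb8 ran from 0.558 to 2.66 TPM and from 0.192 to 0.554 TPM, a log2 difference of -1.01 (adjusted p = 0.0259). These were the only 2 of the 10 genes that differed, beside 10.3% of all genes. The aCD3 effect had the same sign in both runs for Tgfb1 (0.19 and 0.29), Tgfbr1 (-0.67 and -0.50), Tgfbr2 (-0.66 and -0.34), Smad3 (-0.48 and -0.38) and Smad7 (-0.61 and -0.44), with 0 of the genes called by limma in either. Estimates per run for Smad2, Smad4, Ski and Skil are not given here. In run 2 the falls of Tgfbr2, Smad3 and Smad7 rested mainly on M5. Tgfbr2 stood at 18.2 TPM in M5, 57.4 in F1 and 65.3 in M4, beside 48.3 to 60.6 TPM in run 2 isotype. At an unadjusted p under 0.05, 1 of 10 passed in run 1 and 0 of 9 in run 2, beside 14.1% and 3.04% of all genes. Itgb8 stood at 1.47 in run 1 (limma adjusted p = 0.299) and was too low to be tested in run 2. With a term for the run in the full fit, 3 genes were called: Tgfb1 at 0.28, Itgb8 at 1.16 and Smad7 at -0.58, beside 18.2% of all genes.

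Without aCD3, GF and SPF cells differed in 1 of the 10 genes. Skil, a corepressor that is itself a SMAD target, ran from 52.2 to 72.9 TPM in SPF isotype and from 80.1 to 107.8 TPM in GF isotype, with no overlap. Its log2 fold change was 0.55 (SE 0.12, limma adjusted p = 0.00718) and 0.39 (SE 0.08, adjusted p = 0.00735) after scaling. Over all genes 6.42% were higher and 0.755% lower in GF as deposited, and 0.517% and 1.16% after scaling. Tgfb1 stood at 0.43 (SE 0.14, limma adjusted p = 0.0525) and at 0.27 (adjusted p = 0.491) after scaling, and its 10 GF libraries included both runs described above. The other 8 genes had estimates between -0.02 (Itgb8) and 0.41 (Tgfbr1), none of them past the threshold. All SPF libraries come from another run of library numbers, so housing and run cannot be told apart. B and plasma cell markers summed to 96.4 to 273 TPM in SPF isotype and 11.3 to 115 TPM in GF isotype, and stromal markers to 4.69 to 42.7 TPM and 0.492 to 3.06 TPM. In the same order, median sums were 5.49 and 1.64 TPM for erythroid, 6.88 and 13.6 TPM for epithelial and 8.11 and 2.90 TPM for CD8 T cell markers, with overlap. The part of these markers was not tested.

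After aCD3, GF cells on average held more of the chain than SPF cells, and F1, M3 and M4 were the GF libraries farthest above the SPF range for the 8 genes called. Smad7, for example, stood at 15.1 to 17.0 TPM in M5, M2 and M1 and at 38.0 to 38.6 TPM in F1, M3 and M4, beside 11.3 to 15.7 TPM in SPF aCD3. With TPM as deposited 8 of the 10 genes were higher, beside 48.9% of all genes higher and 4.46% lower, and after scaling 6 of the 10, beside 16.1% and 16.7%. Smad3 differed most, at 1.32 (SE 0.24, limma adjusted p = 0.00037) and 0.98 (SE 0.18) after scaling, followed by Tgfbr2 at 1.15 (SE 0.25, limma adjusted p = 0.00103) and 0.76 (SE 0.18). All 6 GF aCD3 libraries lay above all 6 SPF aCD3 libraries for Smad3, Tgfbr2, Smad4 and Skil, in TPM as deposited. How many of all tested genes did so was not counted, so this is not read as particular to these genes. For Smad3 the lowest GF library, M5 at 4.59 TPM, was near the highest SPF library at 4.27 TPM. Tgfbr1 (0.98), Smad4 (0.90), Smad7 (0.76) and Smad2 (0.64) kept their call after scaling, at 0.61, 0.53, 0.37 and 0.28. Skil went from 0.62 to 0.22 (adjusted p = 0.0561 after scaling) and Ski from 0.55 to 0.16 (adjusted p = 0.198), so both lost it. Tgfb1 stood at 0.30 (limma adjusted p = 0.110) as deposited and at -0.10 (adjusted p = 0.685) after scaling, and Itgb8 at 0.38 (adjusted p = 0.427) and 0.14 (adjusted p = 0.823). Regulatory T cell markers summed to 208 to 811 TPM in GF aCD3 and 582 to 735 TPM in SPF aCD3, and B and plasma cell markers to 6.87 to 98.7 TPM and 2.91 to 9.11 TPM. Mast cell markers summed to 0.872 to 3.45 TPM and 3.94 to 5.32 TPM, with no overlap, and myeloid and dendritic markers to 8.88 to 58.4 TPM and 55.1 to 106.6 TPM. The mast cell sum was largely Kit, at 0.486 to 3.41 TPM and 3.94 to 5.21 TPM. The myeloid sum was largely Cd68, at 8.33 to 58.0 TPM and 54.4 to 105.8 TPM. The part of these markers was not tested.

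The test of whether the aCD3 effect itself differed between housings called 0 of the 10 genes by limma as deposited, beside 2.44% of all genes called higher and 1.04% lower, with 5 of the 10 at an unadjusted p under 0.05, as were 32.1% of all genes. After median of ratios scaling (5.3% higher, 6.03% lower) it called 2, as the difference of GF minus SPF: Smad3 at 0.90 (SE 0.24, adjusted p = 0.0237; 1.08 and limma adjusted p = 0.0508 as deposited) and Tgfbr2 at 0.76 (SE 0.25, adjusted p = 0.0467; 0.99 and 0.0663 as deposited). Their fall was thus smaller in GF than in SPF after scaling. Limma voom on recovered reads called 3, with Smad4 at 0.46 added, beside 15.2% of all genes. For Tgfb1 the difference was -0.14, with a 95% interval from -0.56 to 0.29. These differences average over GF aCD3 libraries that were far apart: without M1, M2 or M5, 4, 4 and 6 genes were called, and 4 without SPF isotype F3, beside 16.9%, 20.5%, 26.2% and 17.1% of all genes.

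Other genes of the pathway were taken from a list of 71 by role, of which 49 were tested. In SPF mice 3 of the 49 rose and 32 fell after aCD3, beside 14.2% and 50.7% of all genes. After scaling 8 rose and 24 fell, beside 30.2% and 29.8%. The counts by role that follow are read against the same shares. The list's median log2 fold change was -0.61 beside -0.35 for all genes, and -0.29 beside -0.01 after scaling. Among ligands, Tgfb3, another TGF-beta isoform, rose from 2.90 ± 0.82 to 7.53 ± 2.24 TPM (SD, n = 6 each; log2 fold change 1.11, limma adjusted p = 2.13e-05), and Gdf11, an activin-type ligand, fell from 24.3 ± 2.83 to 7.40 ± 1.45 TPM (-1.61). Bmp7 also fell (-0.42) but was under 1 TPM on average in both groups. Among genes that hold or release latent TGF-beta, Lrrc32, which encodes the docking protein GARP, rose from 3.22 ± 2.08 to 7.09 ± 1.34 TPM (1.06, limma adjusted p = 0.0367). Itgb1, the integrin beta 1 chain, fell (-1.19), as did Nrros (-0.89), which tethers latent TGF-beta.

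All 4 tested receptors outside the main set fell as deposited, and 3 after scaling. Acvr2a, the type II activin receptor, went from 12.4 ± 2.12 to 1.88 ± 0.32 TPM (-2.21, limma adjusted p = 5.12e-06), with Acvr1b (-0.79) and the coreceptor Tgfbr3 (-0.75) behind it. Of the SMADs used mainly by bone morphogenetic proteins, Smad5 (-0.99) and Smad1 (-0.82) fell, and 0 of the 2 tested rose. Of 19 tested cofactors and inhibitors, 15 fell and 1 rose, and 12 fell and 3 rose after scaling. The largest were Ldlrad4, which keeps SMADs from the receptor (-1.43), and the ubiquitin ligases Wwp1 (-1.31) and Smurf2 (-1.30). The risers after scaling, named after their values were seen, were Fkbp1a (0.80), Strap (0.55) and Hdac1 (0.51). Of 8 tested genes known as targets, Runx3, also a partner of SMADs, fell (-0.83), while Cdkn1a (0.78) and Foxp3 (0.93) rose only after scaling and are likewise named after their values were seen. Foxp3 is also one of the regulatory T cell markers given above. Of 7 genes of the routes that bypass SMADs, Tab2 (-0.98) and Rock1 (-0.61) fell under both scalings, and Rhoa (0.43), named after its value was seen, rose after scaling.

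**Figure D4:**
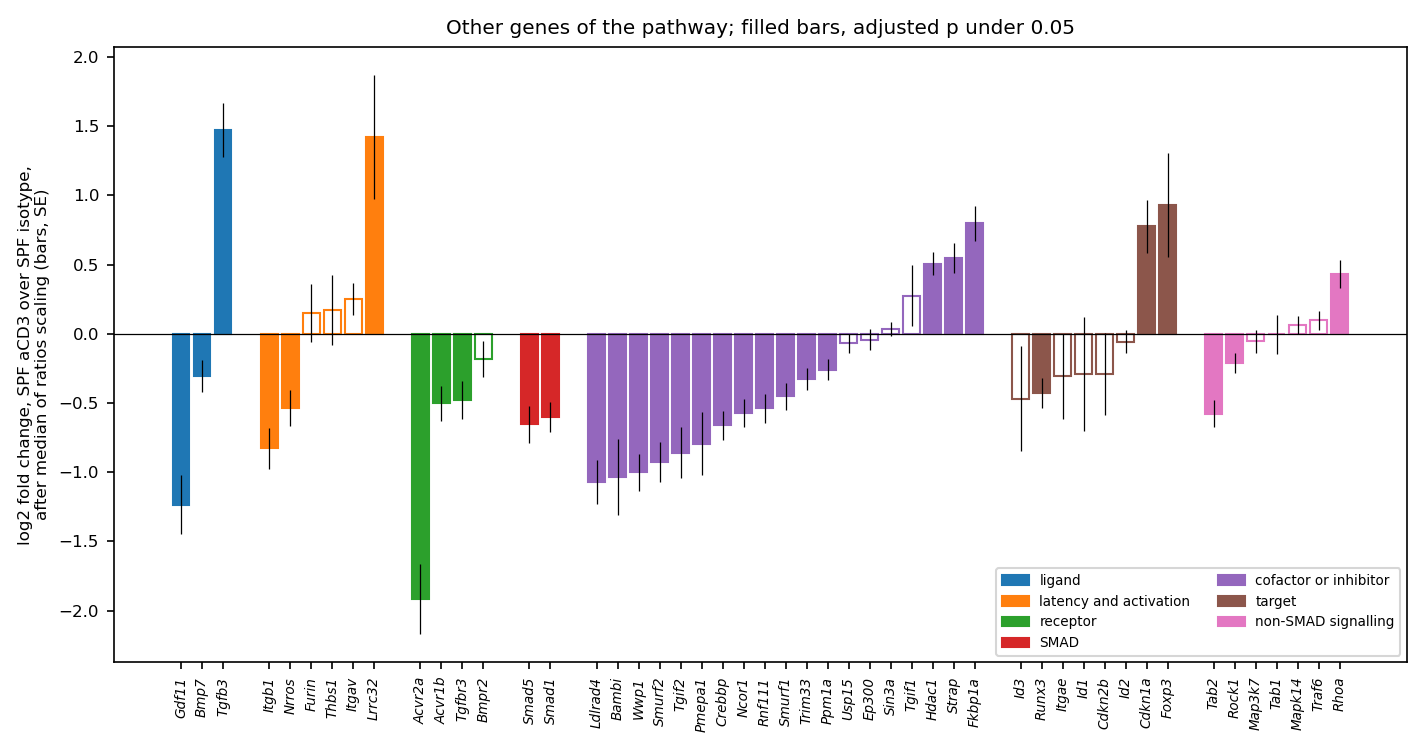
Log2 fold change of SPF aCD3 over SPF isotype after median of ratios scaling (vertical axis) for the 49 tested genes of the wider list (horizontal axis), grouped and coloured by role. Bars start at 0, thin lines are the SE, and filled bars have an adjusted p under 0.05. Tgfb3 and Lrrc32 stand up at 1.48 and 1.42, and Acvr2a reaches -1.92.

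After aCD3 in GF mice 0 of the 49 listed genes rose and 4 fell as deposited, beside 2.46% and 4.61% of all genes. After scaling 2 rose (Tgfb3 at 0.56 and Hdac1 at 0.25, named after their values were seen) and the same 4 fell, beside 5.62% and 4.02%. Those 4 were, as deposited, Itgb1 (-0.59), Ldlrad4 (-0.62), Wwp1 (-0.59) and Ppm1a (-0.39), a phosphatase of Smad2 and Smad3, with limma adjusted p between 0.0481 and 0.0484. All 4 also fell in SPF mice as deposited. The count went to 0 when any GF isotype library or M1, M2 or M5 was left out, and to 16, 24 and 22 without F1, M3 and M4, beside 29.9%, 34.7% and 31.8% of all genes. Between the isotype groups, Id2, an inhibitor of DNA binding that T cells express strongly, was higher in GF under both scalings (0.46, limma adjusted p = 0.00501). In all, 2 listed genes were higher and 1 lower as deposited, beside 6.42% and 0.755% of all genes, and 1 and 0 after scaling, beside 0.517% and 1.16%. After aCD3, 35 listed genes were higher in GF than in SPF and 1 lower, beside 48.9% and 4.46% of all genes, and 18 and 6 after scaling, beside 16.1% and 16.7%. The single lower gene was Tgfb3, at 2.93 ± 0.95 TPM in GF aCD3 (-1.19, limma adjusted p = 0.000154). Higher in GF were Acvr2a (1.63), the feedback inhibitors Pmepa1 (1.39) and Bambi (1.08), Gdf11 (1.24), Itgb1 (1.01), the corepressor Tgif2 (0.87), Id2 (0.77), Bmpr2 (0.74), Smad5 (0.73), Acvr1b (0.71) and Smad1 (0.58).

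The difference of effects called 0 of the 49 by limma as deposited, beside 2.44% of all genes called higher and 1.04% lower, and voom called 7, near its 15.2% of all genes. At an unadjusted p under 0.05, 18 of the 49 passed, near the 32.1% of all genes. After scaling (5.3% higher, 6.03% lower) it called 5, named here after their values were seen: Acvr2a (1.25), Smurf2 (0.67), Wwp1 (0.55) and Smad1 (0.48) higher, and Tgfb3 (-0.92) lower. The 22 untested genes were mostly near 0. Tgfb2 reached at most 0.12 TPM in any library, Smad6 0.066, Inhba 0.12 and Itgb6 0.047, and Ltbp4 was the highest at 3.74 TPM, with 4 libraries at 1 TPM or more.

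Across the 28 libraries, the genes most like each of the 10 were named by Pearson's r of log2(TPM + 1), as a description, with r after subtraction of the group means in second place. The libraries share the groups and the scale, so high values are common. Smad3 was closest to Smad4 (0.99 and 0.96), and Smad2 to Tgfbr1 (0.96 and 0.89). Tgfbr2 was closest to Tnrc6c (0.99 and 0.97), Smad7 to Foxo3 (0.99 and 0.98) and Tgfbr1 to Nup153 (0.97 and 0.90). Ski was closest to Slain1 (0.97 and 0.94) and Skil to Vps4b (0.96 and 0.88). Tgfb1 (Ankrd52, 0.88 and 0.80) and Itgb8 (Izumo1r, 0.89 and 0.91, then H2afz at 0.86 and Ccr8 at 0.85) had other partners than the receptors and SMADs.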

How the data were processed

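The deposited table holds TPM, computed per the file headers with HOMER's analyzeRepeats.pl over RefSeq transcripts of mm10, condensed by gene. In 99.24% of rows the length is end minus start. Whether counting used strand is not given in the sources used here. The labels name both a total RNA kit and polyA RNA. A further 26 TPM columns matched no sample and were left out. TPM times length was a whole multiple of 1 step in 100.0% of low values (within 0.02 reads beside rounding), which gave reads per library. Limma 3.58.1 (R 4.3.3) was fitted on log2(TPM + 1) over all 28 libraries, with group means, a sex term and a trend, for genes of TPM 1 or more in 6 libraries. It was tested on simulated data. Tables were made with Python 3.11.15, NumPy 2.4.6 and pandas 2.3.3. The alternatives tried were other pseudocounts, filters, scalings, weights, terms, libraries and voom.

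Named are the 10 genes, up to 3 genes per role of the wider list past the threshold under both scalings, and the 3 nearest genes by Pearson's r with a mean of at least 5 TPM. The genes and lists were chosen with earlier results of these data known, and leave-one-out counts of the wider list were added after seeing the data. Within housings, same-named libraries did not deviate together (r from -0.30 to 0.21), so names were not used as pairs. No 2 libraries held identical values.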

Additional observations from a re-analysis of the deposited data

Results flagged for a closer look

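Among 40 sets of values (10 genes in 4 groups), 4 held a library far from the others of its group by Dixon's test, and chance gives about 2. Itgb8 stood at 0.784 TPM in SPF isotype M2, with the other 5 libraries between 1.07 and 1.20. Tgfbr2 stood at 32.3 TPM in SPF isotype F3, with the others between 45.01 and 51.5; in that library the ribosomal RNA precursor Rn45s took 22.9% of summed TPM, the highest share of the 28. Smad7 stood at 11.3 TPM in SPF aCD3 F3, with the others between 14.5 and 15.7. Ski stood at 14.6 TPM in SPF aCD3 M2, with the others between 16.7 and 17.5.

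For 2 genes the aCD3 effect differed between GF and SPF by the test of the difference after median of ratios scaling: Tgfbr2 by 0.757 (95% interval 0.25 to 1.26) and Smad3 by 0.899 (0.41 to 1.38) on the log2 scale. As deposited neither passed.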

How the results depend on the processing

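Of the 10 genes, 7 to 10 passed in SPF aCD3 over SPF isotype and 6 to 9 in GF aCD3 over SPF aCD3 under every alternative run, and no called gene changed sign in any comparison. Leaving out 1 library, here and below always one of the groups compared, gave 7 to 8 and 8 to 9. Over all genes, the settings called 6242 (a TPM of at least 5) to 8783 (array weights) in the first comparison. In the second they called 3348 (quantile scaling) to 6539 (a pseudocount of 0.1). The counts among the 10 genes are read beside these. In GF aCD3 over GF isotype, where 0 passed, median of ratios, quantile scaling, a TPM of at least 5 and voom gave 1, no sex term and the run term 3, array weights 7, and leaving out 1 library 0 to 8 (6 without F1, 8 without M3 or M4). Between the isotype groups, where 1 passed, a TPM of at least 5, TPM without Rn45s and histone genes, no sex term and the replicate block gave 2, array weights and only the compared groups 3, and leaving out 1 library 1 to 2 (Tgfb1 added without GF isotype F5, M4 or M5). For the difference of effects, where 0 passed, a pseudocount of 0.1, a TPM of at least 5, quantile scaling and TPM without Rn45s and histone genes gave 1, median of ratios 2, voom 3, and leaving out 1 library 0 to 6. In the wider list, leaving out 1 library gave 34 to 38 calls in SPF, 0 to 24 in GF, 1 to 4 between isotype groups, 29 to 36 after aCD3 and 0 to 18 for the difference. Over all genes the same fits called 7414 to 8057, 0 to 4215, 322 to 987, 4886 to 7226 and 32 to 3187. Median of ratios moved the isotype count from 3 to 1 and the difference from 0 to 5. Over all genes, the GF count of 862 became 0 with a pseudocount of 0.1, no filter, the replicate block or only the compared groups, 545 without Rn45s and histone genes, 2215 with the run term, 2472 without the sex term and 3636 with array weights. The isotype count of 874 ran from 178 (quantile scaling) to 2362 (without Rn45s and histone genes) by setting and from 322 (without SPF isotype F3; 567 without SPF isotype F1) to 987 when 1 library was left out, the count of 6496 after aCD3 fell to 3348 (quantile scaling), and the 424 of the difference ran from 159 (array weights) to 1846 (voom) by setting and from 32 (without GF aCD3 F1) to 3187 (without GF aCD3 M5) when 1 library was left out. The causes were not tested. In these libraries, names paired by the replicate block share only a label: 1 of 6 SPF libraries and 0 of 6 GF libraries correlated best with their own name, and the block gave 8 calls in SPF, 0 in GF, 2 between isotype groups, 9 after aCD3 and 0 for the difference. Over all 12182 tested genes the block called 7794, 0, 658, 5715 and 162. Depth limits Itgb8 most, with as few as 30 reads in a library.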
